A study of Mus musculus with 6 samples.

Results

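Ribosomal RNA repeats are stretches of the mouse genome that resemble the RNAs of the ribosome. They were taken as every row of the class rRNA in the authors' deposited table of repeats, which gives 437 of its 773731 rows, at 328 loci. A row is one repeat locus read in one direction, so a locus can have up to 2 rows. By repeat name there were 232 rows of 5S at 197 loci, 185 rows of LSU-rRNA_Hsa at 116 loci and 20 rows of SSU-rRNA_Hsa at 15 loci, where LSU and SSU stand for the RNA of the large (28S) and small (18S) subunit.

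The study sequenced RNA from ID8, an immortalized mouse line of ovarian surface epithelium from strain C57BL/6, with 3 libraries of Trp53-/- cells (Trp53_KO) and 3 of Trp53+/+ cells (Trp53_WT). The altered gene codes for p53, a tumour suppressor. Both groups grew asynchronously, no agent was added to either, and all libraries were strand-specific libraries of total RNA. Whether the replicates came from separate cultures, and whether the Trp53_KO cells are 1 clone, is not stated in the labels. Every p-value therefore rests on differences among the sequenced libraries, and these could be purely technical.

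The RNAs of 18S, 5.8S and 28S are cut from one precursor that RNA polymerase I makes in the nucleolus, whereas RNA polymerase III makes 5S RNA from its own gene cluster, and the mitochondrial genome encodes its own pair of ribosomal RNAs. Mammalian genomes also carry scattered copies and fragments of these genes, inserted between genes, in introns and in untranslated regions. Library kits for total RNA usually remove most ribosomal RNA before sequencing, and p53 is known both to restrain RNA polymerase I and to be stabilised when ribosome assembly fails, through a particle of 5S RNA with Rpl5 and Rpl11.

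Sequences are shown for the 28S-like copies that carry the lowest FDR values of all rRNA rows and for their near-identical relatives. They are copied from the GENCODE M21 transcripts (GRCm38, the same assembly as mm10) and run 5′ to 3′ on the gene's strand, which is also the strand of the repeat. Gm23935 (chr16:11144125-11144181, plus strand) is identical over its 57 bases to Gm24270 (chr9:56223715-56223771, minus strand) and Gm24245 (chr4:139338304-139338360, plus strand), and no other gene among 141767 transcripts held that run. Gm25911 (chr1:167340369-167340424, minus strand) and Gm23388 (chr8:85112012-85112068, minus strand) differ from it at the bases in capitals. Counted from the 5′ end of Gm23935, these are G14A in Gm25911, which also lacks 1 base, and G2T, C16G, G21T and G48T in Gm23388. All 5 are annotated as miRNA genes and lie inside an LSU-rRNA_Hsa repeat.
Gm23935: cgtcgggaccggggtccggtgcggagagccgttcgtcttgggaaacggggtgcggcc
Gm25911: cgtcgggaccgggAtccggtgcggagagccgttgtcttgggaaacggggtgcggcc
Gm23388: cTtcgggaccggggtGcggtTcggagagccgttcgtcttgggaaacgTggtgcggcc
The 28S-like run of Gm23935 is 73.7% G and C. A read that lies wholly within the run shared by the identical copies cannot be placed at one of them with certainty. The rest of these loci was not compared, so how far the value of a single locus is uncertain was not tested.

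The libraries held 15319956 to 19954170 reads counted in genes. Trp53 RNA followed the labels, at 25.3 to 29.6 CPM (counts scaled to the TMM-adjusted library size) in Trp53_KO and 97.3 to 110 CPM in Trp53_WT. Trp53_WT replicate 1 stood apart, with a chi-square per degree of freedom of 27.5 and 26.9 against its fellow replicates, which differed from each other by 2.01. The pairs of Trp53_KO libraries lay between these values, at 4.27 to 8.81. Epithelial markers summed to 3336 to 3622 CPM in Trp53_KO and 3264 to 3356 CPM in Trp53_WT, but single markers moved both ways. Of 8, 4 were higher (Lrrn4, Upk3b, Wt1 and Krt7, by 8.04, 2.85, 0.82 and 0.81 on the log2 scale) and 3 lower (Krt8, Krt19 and Msln, which fell by 0.31, 0.30 and 0.26; edgeR, adjusted p under 0.05). Of 8 markers of other cell types, 3 (Adgre1, Cd3e and Cdh5) had no count in any library, and the 8 together summed to 234 to 256 CPM in Trp53_KO and 106 to 113 CPM in Trp53_WT, most of it Dcn. Their part in the results below was not tested, and in bulk RNA fewer cells of a type and less RNA per cell cannot be told apart.

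Some repeats of the large and small subunit, 21 of 107 rows, were lower in Trp53_KO in reads that ran against the strand of the repeat, and no rRNA row was higher. "Along" here means reads in the direction of the repeat's own strand, that of ribosomal RNA, and "against" means the opposite direction. At an FDR under 0.05 in the authors' deposited table, 21 of 437 rRNA rows were lower, against 0.284% of all repeat rows, and 0 were higher, against 0.388% of all rows. All 21 were read against the repeat, which is 21 of 221 such rows, whereas 0 of 216 rows read along it passed. Over all repeats in the authors' deposited table, 0.256% of rows read against and 0.317% of rows read along the repeat were lower, and 0.229% and 0.578% were higher. The authors' separate deposited table of higher repeats, with 2853 rows, held 0 rRNA rows.

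**Figure D1:**
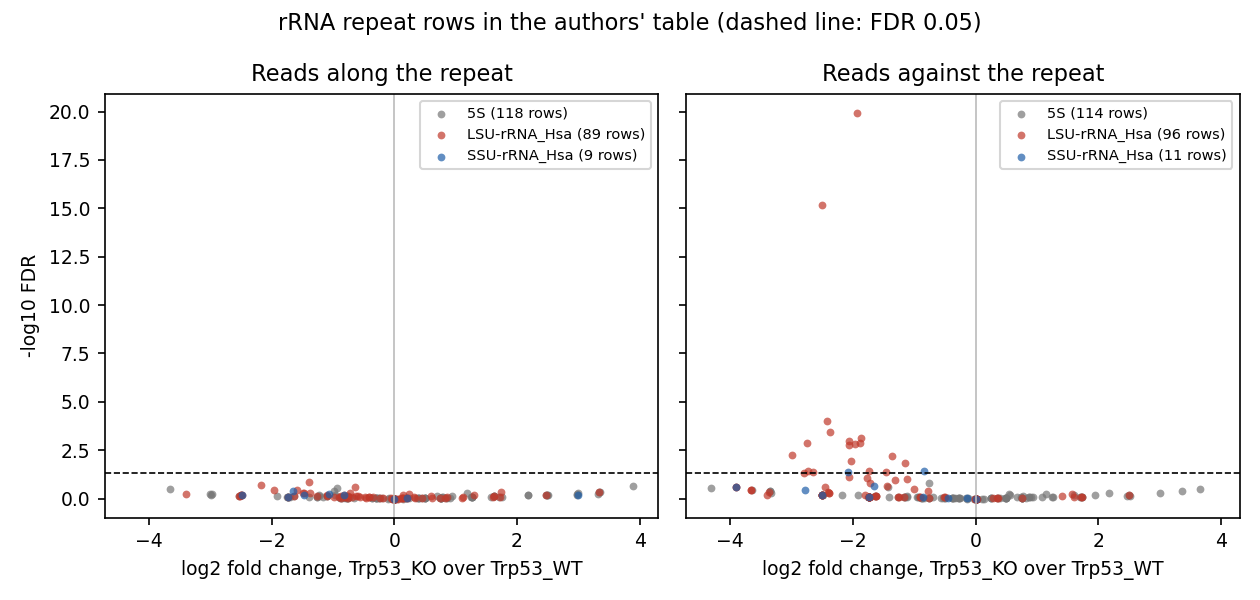
Log2 fold change (Trp53_KO over Trp53_WT, x axis) and −log10 FDR (y axis) of each of the 437 rRNA rows in the authors' deposited table, split by read direction and coloured by repeat name. All 21 rows above the dashed line at an FDR of 0.05 are LSU or SSU rows read against the repeat with a fold change below 0.

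The calls were spread unevenly over the 3 repeat names. LSU-rRNA_Hsa held 19 of them, from 96 rows read against the repeat (19.8%), and SSU-rRNA_Hsa held 2 of 11 (18.2%), as counted from the authors' deposited table. None of the 114 5S rows read against and none of the 118 read along the repeat passed. The 5S loci were at most 122 bases long, and short LSU and SSU rows also seldom passed. Of those under 150 bases read against the repeat, 1 of 23 did. Among 781 repeat names with at least 20 rows read against the repeat, LSU-rRNA_Hsa had the highest share of lower rows in the authors' deposited table, followed by L1M7 with 2 of 22 rows (9.09%) and Zaphod with 2 of 29 (6.90%). Those next names rest on few rows, and the difference between names was not tested.

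Other repeats of structural RNAs had far smaller shares. In the authors' deposited table, lower rows made up 0.495% of 606 snRNA rows, 0.272% of 1104 tRNA rows and 0.250% of 1599 scRNA rows, and the 139 srpRNA rows held none. The much larger classes lay in the same range, with SINE at 0.205% of 400949 and LTR at 0.425% of 127084 by the authors' deposited table. rRNA stood at 4.81%, which the plot by class shows to come wholly from reads against the repeat.

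**Figure D2:**
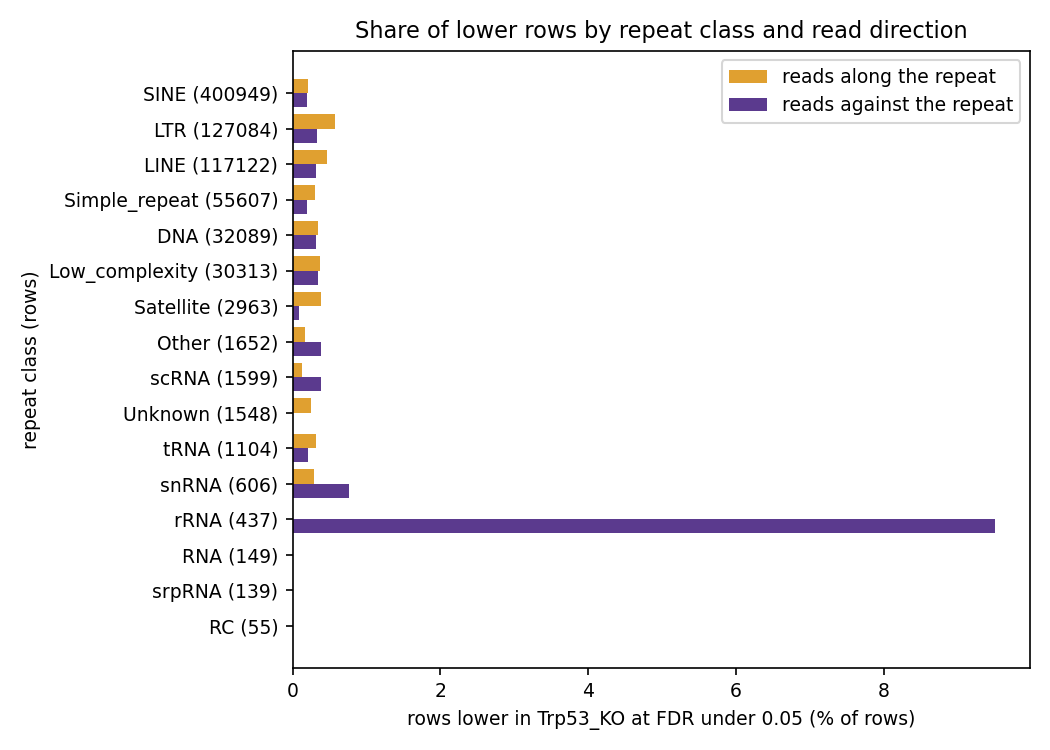
Share of rows lower in Trp53_KO at an FDR under 0.05 (x axis, % of rows) in the authors' deposited table for each repeat class (y axis, with its number of rows), separately for reads along and against the repeat. rRNA reaches 9.50% for reads against the repeat and 0 for reads along it, while snRNA, the next class, reaches 0.758% for reads against.

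Medians over all rows, called or not, also differed by direction. The median log2 fold change of LSU rows in the authors' deposited table was -1.46 for reads against and -0.01 for reads along the repeat, beside 0.00 over all repeat rows. For SSU the medians in the authors' deposited table were -1.66 against and -1.07 along the repeat, and 10 of 11 rows against and 7 of 9 along it were below 0. Of the 107 LSU and SSU rows read against the repeat, the 86 that did not pass had a median of -0.95 in the authors' deposited table, with 54 of them below 0, while the 98 rows read along the repeat, none of which passed, had a median of -0.03. For 5S both medians rounded to 0.00. Within 0.02 of 0 lay 23 of 96 LSU rows read against and 20 of 89 read along the repeat. Depth per row is unknown, so rows with few reads may weigh on all these medians.

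At loci with a row in both directions the same locus could be compared with itself. Reads against the repeat had the lower fold change at 51 of 69 LSU loci, 5 of 5 SSU loci and 24 of 35 5S loci in the authors' deposited table. The median difference, against minus along, was -1.56 on the log2 scale at LSU loci, -1.06 at SSU loci and -0.76 at 5S loci in the authors' deposited table. At 39 of the 74 LSU and SSU loci both directions were below 0. These are counts over loci of similar sequence and unknown depth, so they are a description and carry no test.

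**Figure D3:**
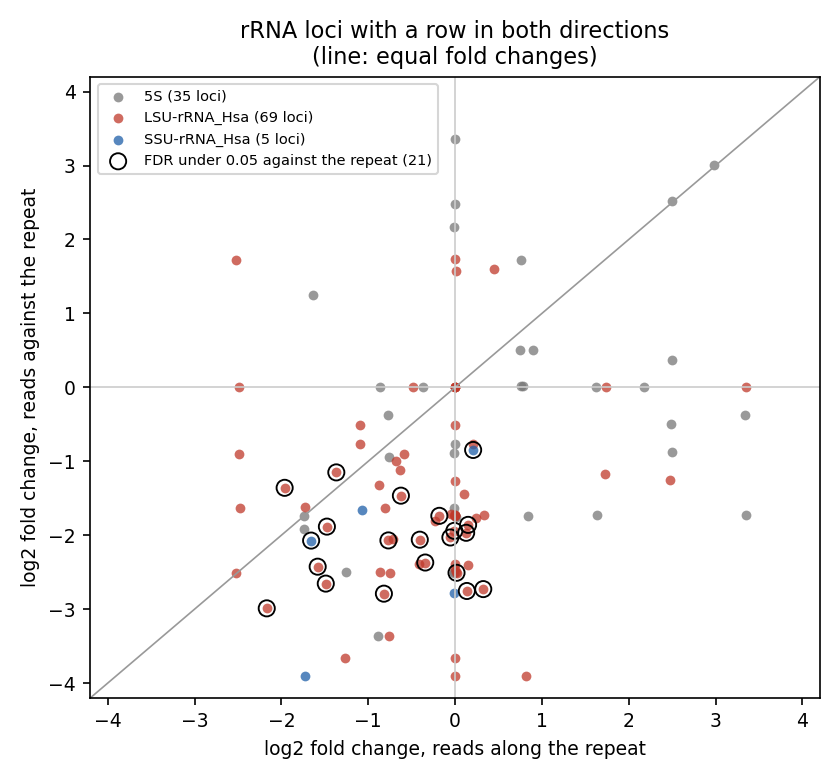
Log2 fold change of reads along (x axis) and against (y axis) the repeat at each rRNA locus with rows in both directions, from the authors' deposited table, with the 21 rows read against the repeat at an FDR under 0.05 circled. Of 69 LSU points 51 lie below the diagonal, and the medians over all 69 are -0.04 for x and -1.73 for y.

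The 21 lower rows lay at 21 loci on 14 chromosomes, with log2 fold changes from -2.99 to -0.85 and a median of -2.06 in the authors' deposited table. Every one of those loci also had a row for reads along the repeat. The median of those along rows was -0.41 (range -2.17 to 0.32) in the authors' deposited table, 15 of 21 were below 0, and none passed. The called loci were 139 to 899 bases long, with a median of 335. Of LSU and SSU rows read against the repeat, 1 of 23 under 150 bases, 6 of 44 from 150 up to 300 bases and 14 of 40 of 300 bases or more passed in the authors' deposited table. Depth per row is not in the authors' deposited table, so the part of read depth in this order was not tested.

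The lowest FDR values belonged to the pair of loci with the identical 28S-like run shown above. At the locus of Gm23935 (chr16:11143844-11144315) reads against the repeat had a log2 fold change of -1.94 with an FDR of 1.15e-20 in the authors' deposited table, and reads along it -0.01. At the locus of Gm24270 (chr9:56223572-56223963) the values in the authors' deposited table were -2.51 with an FDR of 6.90e-16 against and 0.02 along the repeat. The third identical copy, Gm24245, lies in a locus (chr4:139338107-139338445) whose deposited values went the opposite way and did not pass, at 1.72 against (FDR 0.792) and -2.52 along the repeat (FDR 0.701) in the authors' deposited table. The loci of the diverged copies had -2.50 at Gm25911 (FDR 0.643) and -2.40 at Gm23388 (FDR 0.451) for reads against the repeat in the authors' deposited table. The deposited values of copies with the same run thus differed, but the gene Gm24245 had only 2 counts, all in Trp53_WT replicate 1. Read depth at its locus is unknown, so these values do not show that identical copies behave differently.

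Gene counts for these 28S-like copies have values per library, which the table of repeats lacks, but they may not cover the called reads. Values per library are given in the order of replicates 1, 2 and 3. Gm23935 measured 20.5, 15.5 and 31.8 CPM in Trp53_KO and 32.8, 19.2 and 19.2 CPM in Trp53_WT. Its log2 fold change was -0.06 ± 0.27 (SE; edgeR's quasi-likelihood test, adjusted p = 0.896 by the Benjamini-Hochberg method). Gm24270 was at 11.9, 10.3 and 19.7 CPM in Trp53_KO and at 18.4, 12.0 and 11.8 CPM in Trp53_WT (edgeR, adjusted p = 0.997). The groups overlapped for both genes, and in both the high libraries were Trp53_KO replicate 3 and Trp53_WT replicate 1. Gm25911 had the same high libraries, at 3.35 and 3.71 CPM against 1.34 to 1.58 CPM elsewhere (edgeR, adjusted p = 0.977). Each gene lies on the strand of its repeat. Counts that used read direction would therefore hold reads along the repeat, not the called reads against it. The rows along the repeat were at -0.01 for Gm23935 and 0.02 for Gm24270 in the authors' deposited table. Whether the gene counts used read direction is not given in the sources used here.

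Of the other 19 lower rows, 8 lay between genes and 11 within an annotated gene. The lowest fold change was at chr11:109011646-109012122, between genes, with -2.99 against (FDR 0.00550) and -2.17 along the repeat (FDR 0.200) in the authors' deposited table. The locus at chr8:15519775-15520124, also between genes, had -2.75 against (FDR 0.00132) and 0.14 along the repeat in the authors' deposited table. The remaining intergenic LSU rows that were called in the authors' deposited table ranged from -2.65 at chr16:17222214-17222517 to -1.74 at chr1:102628053-102628340. Between genes, 8 of 51 LSU and SSU rows read against the repeat passed. Where the read direction was that of the host gene 5 of 23 passed, and where it was opposite 6 of 24 passed.

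Most host genes did not pass a test of their own. Of the 10 hosts with enough counts for a test, 2 were lower, 1 was higher and 7 did not pass (edgeR, adjusted p under 0.05), where 16.1% of all tested genes were lower and 14.1% higher. Fgfr2, a receptor for fibroblast growth factors, was at 8.41, 7.49 and 9.04 CPM in Trp53_KO and 17.3, 17.1 and 18.3 CPM in Trp53_WT. The groups did not overlap, and the gene fell by 1.08 on the log2 scale (SE 0.10; edgeR, adjusted p = 3.9e-05). The LSU row in its intron (chr7:130834363-130834649), read in the gene's direction, was at -2.43 (FDR 1.03e-04) in the authors' deposited table and is the only called row whose host was lower in the same direction.

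Jarid2, a subunit of the Polycomb complex PRC2, went the opposite way from its repeat. The gene was at 31.7, 33.7 and 34.3 CPM in Trp53_KO and 24.6, 19.4 and 21.8 CPM in Trp53_WT, so every Trp53_KO library was higher, and it rose by 0.60 ± 0.10 (SE, log2; edgeR, adjusted p = 0.0012). The LSU row in its intron (chr13:44869572-44870086) was at -2.37 (FDR 3.68e-04) in the authors' deposited table, although its reads run in the gene's direction. Camk1d, a calmodulin-dependent kinase, had 1 count over Trp53_KO and 225 over Trp53_WT, a ratio of 0.00434 (95% exact interval 0.000109 to 0.0244, counting error only). The LSU row in its intron (chr2:5379042-5379376) was at -2.07 (FDR 0.00111) in the authors' deposited table, but its reads run opposite to the gene.

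The other hosts with enough counts did not pass. Arhgap21 was at 147 ± 3.6 CPM (SD, n = 3) in Trp53_KO and 131 ± 27 CPM in Trp53_WT, while its row (chr2:20899847-20900210) was at -1.97 (FDR 0.00148) in the authors' deposited table. That gene's own call rests on 1 library: without Trp53_WT replicate 1 it rose by 0.34 (edgeR, adjusted p = 2.84e-04), against 0.348 with it. Atf2, a transcription factor of the bZIP family, was at 144 ± 11 and 138 ± 1.3 CPM, with a row at -2.73 (FDR 0.0382; chr2:73867872-73868032) in the authors' deposited table. Gphn, which encodes gephyrin, and Gnb1l did not pass either (edgeR, adjusted p = 0.218 and 0.724), beside rows at -1.15 (FDR 0.0145) and -0.85 (FDR 0.0377) in the authors' deposited table. Gm26561 and the 2 host genes with RP24 names had no count in any library.

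The threshold cut through a run of similar values. Just inside it in the authors' deposited table were the SSU row at chr6:3200779-3201677 (-2.07, FDR 0.0450) and the LSU row in an intron of RP24-342G5.6 (chr12:99645061-99645678; -2.79, FDR 0.0451). Just outside were LSU rows in introns of Cmss1 (chr16:57391113-57391673; -2.06, FDR 0.0798) and Sspn (chr6:145932749-145933027; -1.77, FDR 0.0834) in the authors' deposited table. Both were again read against the repeat.

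The longest locus of each subunit did not pass in either direction. That of LSU (chr2:22744243-22745008, 766 bases) had -2.38 against (FDR 0.512) and -0.41 along the repeat (FDR 0.815) in the authors' deposited table. Rn18s-rs5, a nearly full-length copy of 18S RNA, holds the longest SSU locus (chr17:39846353-39848201, 1849 bases), with -1.66 against (FDR 0.219) and -1.07 along the repeat (FDR 0.609) in the authors' deposited table. Its gene counts were 28.4, 29.3 and 19.6 CPM in Trp53_KO and 170, 39.6 and 35.8 CPM in Trp53_WT. The groups did not overlap, but Trp53_WT replicate 1 was far above all the others. The gene fell by 1.66 on the log2 scale (SE 0.53; edgeR, adjusted p = 0.042), and by 0.55 without Trp53_WT replicate 1 (edgeR, adjusted p = 0.00196). Leaving out Trp53_KO replicate 1, 2 or 3 ended the call (edgeR, adjusted p = 0.0972, 0.108 and 0.139), as did limma-voom (adjusted p = 0.101) and DESeq2 (adjusted p = 0.0823). Over all alternatives its adjusted p ranged from 2.62e-10 to 0.139.

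The same library set the values of Lars2, the mitochondrial leucyl-tRNA synthetase gene, whose 3′ untranslated region holds a called LSU row. Lars2 was at 5.30, 5.61 and 8.14 CPM in Trp53_KO and 35.7, 6.13 and 5.68 CPM in Trp53_WT, so only Trp53_WT replicate 1 stood out and the groups overlapped. Its log2 fold change was -1.28 ± 0.64 (SE; edgeR, adjusted p = 0.169), and 0.10 without that library (edgeR, adjusted p = 0.686). Without Trp53_WT replicate 2 or 3 it passed (edgeR, adjusted p = 0.0468 and 0.0482), as it did with no filter on low counts (edgeR, adjusted p = 4.93e-05). The row (chr9:123461792-123462187) was at -1.36 against (FDR 0.00608) and -1.96 along the repeat (FDR 0.381) in the authors' deposited table. The called reads run opposite to the gene, and only the uncalled reads along the repeat run in its direction. The table of repeats has no values per library, so the part of Trp53_WT replicate 1 in the 21 lower rows could not be measured.

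**Figure D4:**
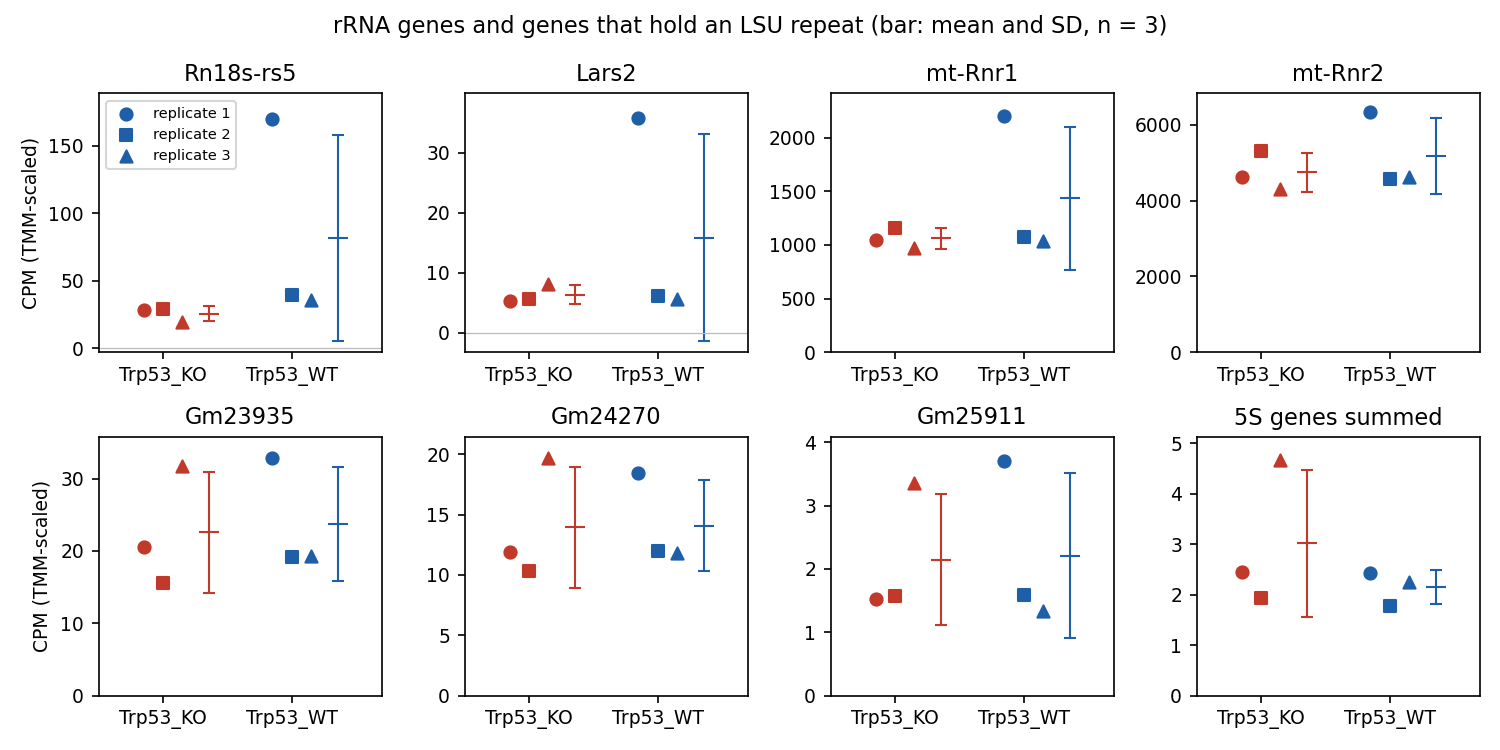
Level of rRNA genes and of genes that hold an LSU repeat (y axis, TMM-scaled CPM) in each library (points, by replicate) with the group mean and SD (n = 3). Trp53_WT replicate 1 lies at 170 CPM for Rn18s-rs5 and 35.7 CPM for Lars2, above every other library, while Trp53_KO replicate 3 is highest for the summed 5S genes at 4.68 CPM.

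Mitochondrial ribosomal RNAs were the most abundant rRNAs counted, and neither passed in the test of all libraries with the filter. mt-Rnr1, the small-subunit RNA of the mitochondrion, was at 1048, 1162 and 970 CPM in Trp53_KO and 2203, 1071 and 1032 CPM in Trp53_WT. Its log2 fold change was -0.44 (edgeR, adjusted p = 0.226) and 0.01 without Trp53_WT replicate 1 (edgeR, adjusted p = 0.935), the one library that stood above the rest. With no filter on low counts it passed (edgeR, adjusted p = 0.00208). mt-Rnr2, the large-subunit RNA, was at 4623, 5299 and 4301 CPM in Trp53_KO and 6329, 4555 and 4624 CPM in Trp53_WT (log2 fold change -0.12; edgeR, adjusted p = 0.523). An LSU repeat lies within mt-Rnr2 (chrM:2001-2177), at 0.01 along (FDR 1.0) and 1.57 against the repeat (FDR 0.565) in the authors' deposited table. All rRNA genes listed in the counts made up 0.571%, 0.648% and 0.533% of reads counted in Trp53_KO and 0.842%, 0.574% and 0.575% in Trp53_WT. The high value was again that of Trp53_WT replicate 1. How completely each library was depleted of ribosomal RNA was not measured separately and cannot be told apart from the level in the cells.

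5S repeats showed no call in either direction. The lowest FDR of the 232 rows was 0.152, for reads against the locus of n-R5s202 (chr2:112469277-112469367), with a log2 fold change of -0.76 in the authors' deposited table. The extremes were 3.90 (FDR 0.221) for reads along a locus in an intron of Sh3kbp1 on chromosome X and -4.31 (FDR 0.300) against one in an intron of Tmem266 on chromosome 9, in the authors' deposited table. Large fold changes thus came with FDR values far from the threshold. In the 5S cluster of chromosome 8 (chr8:123538784-123622046), 39 loci gave 69 rows with a median of 0.00 along and -0.37 against the repeat and a lowest FDR of 0.414 in the authors' deposited table.

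Few reads were counted in 5S genes. Of 180 5S genes in the gene counts 62 had a count in any library, none had enough for a test, and n-R5s40 had the most, 48 counts over all libraries. Summed over all 5S genes the counts were 48, 32 and 88 in Trp53_KO and 36, 36 and 42 in Trp53_WT, or 3.02 ± 1.5 CPM (SD, n = 3) against 2.15 ± 0.34 CPM. The groups overlapped, and Trp53_KO replicate 3 was the highest. The difference was within the spread (exact two-sided permutation test, p = 0.4, where 3 against 3 libraries cannot go below 0.1).

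Genes linked to the making, processing, silencing or decay of ribosomal RNA were counted from 9 lists, one of them the rRNA genes themselves. Over all 9, 39 of 222 tested genes were higher and 6 lower (edgeR, adjusted p under 0.05), beside 14.1% higher and 16.1% lower (30.3% in either direction) among all 13651 tested genes, and their median log2 fold change was 0.16 against -0.02 over all. Without Trp53_KO replicate 1 the higher genes numbered 18, and without Trp53_KO replicate 3 they numbered 23. Of 4 tested markers of other cell types 3 were higher as well. Dcn was at 235 ± 11 CPM (SD, n = 3) in Trp53_KO against 102 ± 4.2 CPM, Pecam1 at 1.95 ± 0.37 against 0.15 ± 0.05 CPM and Pdgfra at 2.16 ± 0.67 against 0.80 ± 0.10 CPM, while Cd68 did not pass (3.98 ± 0.14 against 4.86 ± 0.25 CPM). Their part in the list counts was not tested.

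Large-subunit processing had 10 of 28 tested genes higher (35.7%) and 0 lower, with a median of 0.19. Noc2l, which acts in the export of large-subunit precursors and is also known as an inhibitor of p53-bound histone acetylation, was at 230, 216 and 227 CPM in Trp53_KO and 156, 155 and 157 CPM in Trp53_WT. The groups lay far apart relative to their spread, and it rose by 0.52 ± 0.06 (SE, log2; edgeR, adjusted p = 1.0e-04). Gnl2, a nucleolar GTPase, rose by 0.50, Mrto4 by 0.45 and Nol9, a polynucleotide kinase of the 28S precursor, by 0.37 (edgeR, adjusted p = 0.0020, 0.0019 and 0.0017). Small-subunit processing had 6 of 37 genes higher (16.2%, near the 14.1% of all tested genes) and 1 lower (2.70%, beside 16.1%), with a median of 0.14. The lower one, Utp14a, was at 52.8, 54.5 and 49.0 CPM in Trp53_KO and 70.9, 77.9 and 72.6 CPM in Trp53_WT, and fell by 0.50 (edgeR, adjusted p = 8.0e-04). Fbl, the methyltransferase fibrillarin, was among the higher ones (log2 fold change 0.30, edgeR adjusted p = 0.048). Its call ended when any 1 Trp53_KO library or Trp53_WT replicate 2 was left out. The same held with upper-quartile scaling (edgeR, adjusted p = 0.0578). Other higher calls were lost too, for Bysl without Trp53_KO replicate 1 and for Nop56 without that library or Trp53_WT replicate 3. For Wdr43 the call ended without any 1 Trp53_KO library.

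For RNA polymerase I and its factors, 3 of 16 genes were higher (18.8%) and 1 lower (6.25%), with a median of 0.12. Among all tested genes 14.1% were higher and 16.1% lower. Taf1d, a subunit of the promoter selectivity factor SL1, was at 858, 860 and 773 CPM in Trp53_KO and 576, 678 and 647 CPM in Trp53_WT, and rose by 0.39 ± 0.08 (SE, log2; edgeR, adjusted p = 0.0043). Polr1e rose by 0.37 and Znrd1 by 0.43, both subunits of the polymerase, while Taf1b, also of SL1, fell by 0.61 (edgeR, adjusted p = 0.0070, 0.0093 and 0.0049). The largest subunits and main activators did not pass. Polr1a was at 249 ± 6.4 against 243 ± 8.0 CPM and Ubtf at 202 ± 7.6 against 195 ± 9.3 CPM (SD, n = 3), and Polr1b and Rrn3 had an adjusted p of 0.105 and 0.126 (edgeR).

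Of 15 genes for 5S transcription and the 5S particle, 1 (6.67%) was higher and 1 (6.67%) lower. Gtf3a, the factor TFIIIA that binds the 5S gene, was at 59.4, 55.6 and 61.1 CPM in Trp53_KO and 76.1, 78.2 and 87.3 CPM in Trp53_WT. Every Trp53_KO library was below every Trp53_WT library, and it fell by 0.46 (SE 0.08; edgeR, adjusted p = 0.0019). Rpl11, a partner of 5S RNA, was at 281, 297 and 305 CPM in Trp53_KO and 226, 236 and 244 CPM in Trp53_WT, and rose by 0.32 ± 0.06 (SE, log2; edgeR, adjusted p = 0.0034). Its companion Rpl5 was at 666 ± 24 against 596 ± 32 CPM (SD, n = 3; edgeR, adjusted p = 0.097).

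Among 20 genes of the nuclear RNA exosome and other exonucleases 2 were higher and 1 lower. The exosome subunits Exosc3 and Exosc8 rose by 0.41 and 0.28 (edgeR, adjusted p = 0.0080 and 0.012), and the call for Exosc8 was lost without Trp53_KO replicate 1 or Trp53_WT replicate 2. The exonucleases Dis3 and Exosc10 did not pass (edgeR, adjusted p = 0.172 and 0.116). Of 12 genes linked to the silencing or control of rRNA genes 3 were higher (Ercc6, Kdm2b and Dnmt1, at 0.37, 0.35 and 0.20). The histone methyltransferase Suv39h1 was the 1 lower gene and fell by 0.43 (edgeR, adjusted p = 0.0018). The Dnmt1 call was lost without Trp53_KO replicate 1 or 3, without Trp53_WT replicate 2 or 3 and with a replicate block (edgeR, adjusted p = 0.058).

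Small nucleolar RNAs guide chemical changes of ribosomal RNA and lie mostly in introns of host genes. Of 81 tested small nucleolar RNA genes and hosts 13 (16.0%) were higher and 0 lower, with a median of 0.24. Among all tested genes 14.1% were higher and 16.1% lower, so the share of higher genes was near that over all. The host Snhg18 had the greatest change among them, with 151, 138 and 169 counts in Trp53_KO and 1, 3 and 4 in Trp53_WT (log2 fold change 5.74; edgeR, adjusted p = 1.8e-07). Snhg5 and Snhg3 rose by 0.34 and 0.39, and Snora73a by 0.40 (edgeR, adjusted p = 0.0051, 0.0082 and 0.010). A small nucleolar RNA and its host come from one precursor transcript, so such a pair is not independent. Of 10 tested nucleolar proteins 1 was higher, Npm1 (0.23; edgeR, adjusted p = 0.042), a call lost without any 1 of the libraries other than Trp53_WT replicate 1 and with upper-quartile scaling (adjusted p = 0.0536). Nucleolin, Ncl, was at 868 ± 44 against 833 ± 94 CPM (SD, n = 3).

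**Figure D5:**
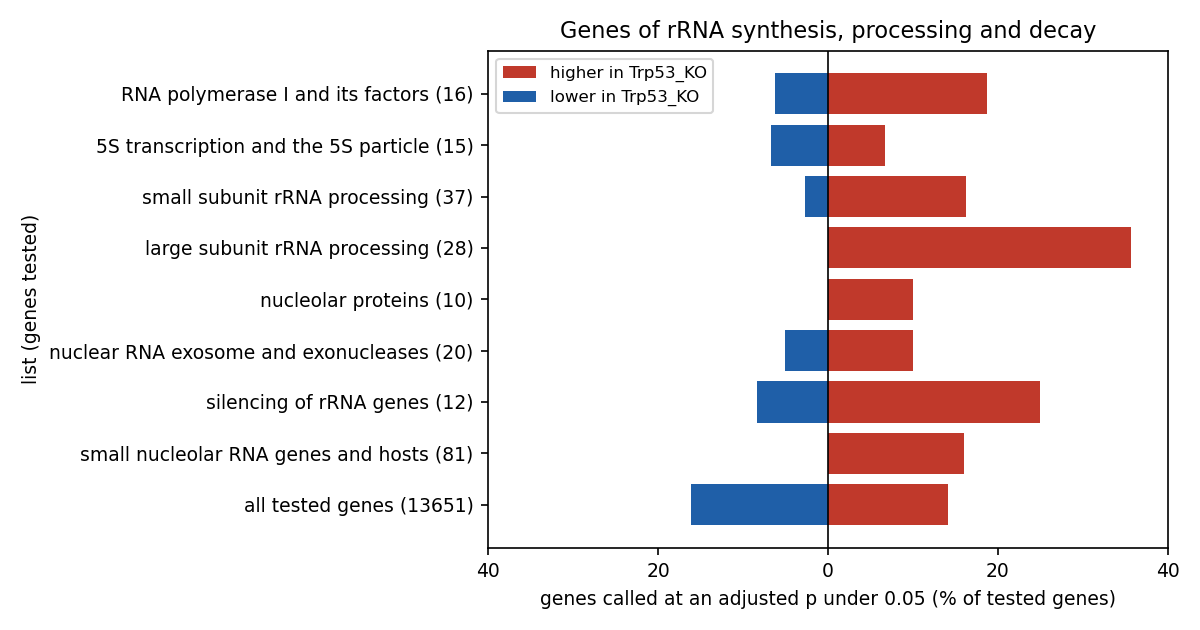
Share of tested genes called higher (right) or lower (left) in Trp53_KO at an adjusted p under 0.05 (x axis, %) for each list of rRNA-related genes, with all 13651 tested genes at the bottom. Large-subunit processing has 10 of 28 genes higher and none lower, while all tested genes split into 14.1% higher and 16.1% lower.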

How the data were processed

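Total RNA of 6 ID8 libraries was sequenced. The submitters' processing notes name the tools STAR, featureCounts and edgeR and the build mm10. Not given in the sources used here are versions, settings, the treatment of reads with several matches and the strand setting of gene counting. Gene values are unnormalized whole-number counts as the authors deposited them. For each repeat locus and read direction, the authors' deposited tables hold a log2 fold change and an FDR (an adjusted p-value), with neither depth nor values per library. The log2 base was checked on 550 rows in exons, where the median ratio to the gene's own log2 fold change was 1.028 (natural log would give 0.693). The row suffix was taken as the read direction because it matched the gene's strand in 88.0% of 38900 exonic or 3′ untranslated rows, against 52.5% for the repeat's strand.

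Genes were tested with edgeR 4.0.16 in R 4.3.3 (filterByExpr, TMM, quasi-likelihood, Benjamini-Hochberg, threshold 0.05). Of 41327 genes, 18744 had no count and 13651 were tested, with a biological coefficient of variation of 9.75%. A standard error is |log2 fold change| over the square root of the F statistic, an approximation. limma 3.58.1 and DESeq2 1.42.0 were alternatives. In a simulation of this comparison over 13651 genes, the fit found 53 of 100 genes with a log2 change of 0.5 and 89 of 100 with a change of 1, and made 9 false calls. Replicates differed by more than sampling noise in every pair and each was counted.

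Named were every rRNA gene with enough counts, hosts of called rows, up to 4 genes per list, by lowest adjusted p, 12 set genes (such as Polr1a and Rpl5) and, among rows, those called and the longest locus of each name. Gm24245 and Gm23388, rows just outside the threshold and the 5S rows with extreme values were added after their values were seen. Members and lists were chosen with earlier results of these data known. Sequences come from GENCODE M21. Some items that the rule covers are not reported here.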

Additional observations from a re-analysis of the deposited data

How the results depend on the processing

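No rRNA row was higher under any of the 8 alternatives, but only the looser FDR of under 0.10 could have added one. The others kept or narrowed the rows or calls, so no higher row was possible under them. The 21 lower rows became 12 at an FDR under 0.01 and 8 among intergenic rows only, and 20 to 23 under the other alternatives, by construction of the narrower sets. The median log2 fold change of -0.13 became -0.26 with 1 row per locus. That row was the one with the lowest FDR, so it was chosen by its outcome and every called locus was kept. The median became -0.76 over intergenic rows, -0.044 without rows read with a host gene called lower and -0.75 without 5S rows. The last 2 alternatives were chosen after seeing the data.

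Among list genes 39 were higher, 18 to 55 when 1 library was left out and 33 to 45 under the other alternatives, and 6 were lower, 5 to 8 when 1 library was left out and 5 to 9 otherwise. The replicate block gave 33 higher and 6 lower. Deviations of same-numbered libraries from their group mean correlated at -0.05, 0.08 and -0.12, which gives no sign of pairing by replicate number. With 3 libraries per group such values cannot exclude a pairing. Under the block 3806 genes were called in all against 4130. With 1 library left out 2977 to 4984 genes were called, with no filter on low counts 4786, with DESeq2 3739 and with limma-voom 4152. Of 744 values of 62 named genes 704 kept their direction and side of the threshold, 29 lost and 11 gained a call, and 0 called values changed sign.

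The depth behind a repeat row is unknown. A fold change near 0 with an FDR of 1, as in 86 rRNA rows with that FDR, does not tell a row with few reads from one with balanced reads.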
